A study of Mus musculus with 6 samples.

Results

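Endothelial transcripts were examined in primary cultures of rib cartilage through 10 genes, Pecam1, Cdh5, Kdr, Flt1, Tek, Tie1, Emcn, Esam, Eng and Erg. The genes were chosen by name, with earlier results of these data known, as were the gene lists set beside them. Counts over these lists are given as description. Every probe set that the array annotation assigns to the 10 genes was taken, 16 probe sets of the 34945 that have 1 gene symbol. RNA was from chondrocytes of newborn wild-type mice (3 arrays) and of newborn mice homozygous for a Slc39a13 knockout allele, Slc39a13-KO (3 arrays). Slc39a13 encodes a zinc transporter, and the allele carries a Neo cassette in place of exons in the middle of the gene, in all cells of the animal. The cells were released from cartilaginous rib cages with collagenase, strained and grown in medium with fetal calf serum, and no sort or endothelial selection is described. The sources do not tell if the 3 arrays of a group are separate mice or cultures. Sex-linked genes, given below, differed within each group, so the arrays of a group were not all from the same mouse. The p-values cover only array-to-array spread, possibly in part of technical origin.

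Endothelial cells line blood and lymph vessels. Their growth and survival depend on receptor tyrosine kinases for vascular endothelial growth factors (Kdr, Flt1) and angiopoietins (Tek, with its partner Tie1), and neighboring cells are held together by Cdh5, Pecam1 and Esam. Cartilage of the newborn rib is free of vessels within the matrix, while the perichondrium and muscle around it are vascularized. Erg, a transcription factor of the ETS family, is made in endothelium and also in joint-forming and articular chondrocytes, so it was set beside the genes that are more restricted to vessels.

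Values are MAS5-type signals on a linear scale with an equal trimmed mean on each array. Groups were compared as log2(signal + 7.96), which understates the change of dim genes, with limma over 12715 genes, each represented by its brightest probe set above a filter at a mean log2 value of 5.80 (a signal of 47.9). In the whole comparison 4.64% of genes were higher and 4.67% lower in KO chondrocytes at an adjusted p of 0.05 (590 and 594 genes). With each array centred on its median, these were 106 and 228, so that 68.3% of calls were lower instead of 50.2%, and the median over all genes was -0.08 instead of 0.01. Slc39a13 itself fell from a signal of 991 ± 89.8 (SD, n = 3) to 154 ± 48.9 (SD, n = 3), and the position of its probe set relative to the removed exons was not determined. KO replicate 1 stood apart, with correlations of 0.947 to 0.957 with the other arrays against 0.965 to 0.983 among those 5, and it had the highest median signal, 108 against 80.7 to 88.4 on the others. Xist was high on wild-type replicate 3 and KO replicate 2 only. The Y-linked Eif2s3y, named after its values were seen, was at 3.83 and 35.9 on these and at 1073 to 1497 on the other arrays. Each group thus held RNA of both sexes.

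Of the 10 endothelial genes, 1 was higher in Slc39a13-KO chondrocytes, Erg, by 2.14-fold in mean signal, and none of the other 3 that passed the filter was called in limma or had an unadjusted p under 0.05 (0 of 3), a threshold that 12.7% of all tested genes passed upward and 12.4% downward. The 6 without a probe set above the filter were Pecam1, Cdh5, Tek, Tie1, Emcn and Esam. These include the genes that most firmly define endothelium, and none had a mean signal above the range that genes of unrelated organs gave. Without the filter a further gene, Esam, was lower in KO chondrocytes. In RNA from a mixed culture, fewer cells of a type and less RNA per cell cannot be told apart.

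The level of the endothelial genes was set beside 26 genes of other organs, such as those of pituitary hormones, protamines and lens crystallins, as a description of what a probe set may give without its RNA. Brightness differs between probe sets for reasons other than RNA amount, so no order of RNA amount among genes is drawn from it. Means over the 6 arrays of these 26 genes ran from 4.66 to 179, with a median of 42.8. Of the endothelial genes, 9 did not exceed that range, and Eng did. The next highest means under 179 were 116 and 74.7. Of the 26 genes, 1 had a mean above that of Erg, 2 above Kdr and 4 above each of Flt1 and Esam. For Emcn, Tek, Cdh5, Pecam1 and Tie1 these numbers were 12, 13, 15, 25 and 26. Erg, at 208 ± 26.8 (SD, n = 3) on the KO arrays, had its KO mean above it and its wild-type mean of 96.8 ± 7.14 (SD, n = 3) within it. Of the 26 genes of other organs, 9 were tested and none was called, against 4.64% of all genes higher and 4.67% lower. Their median log2 fold change was 0.44, against 0.01 for all genes. The summed signals of the 26 were 1016 to 1184 on the wild-type and 1212 to 1872 on the KO arrays, and were apart. The part of such a shift in the change of dim endothelial genes was not tested. The chondrocyte markers Col2a1, Acan, Sox9, Col9a1, Col11a2, Matn1, Comp and Hapln1 all passed the filter, with gene means of 511 to 41233.

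**Figure D1:**
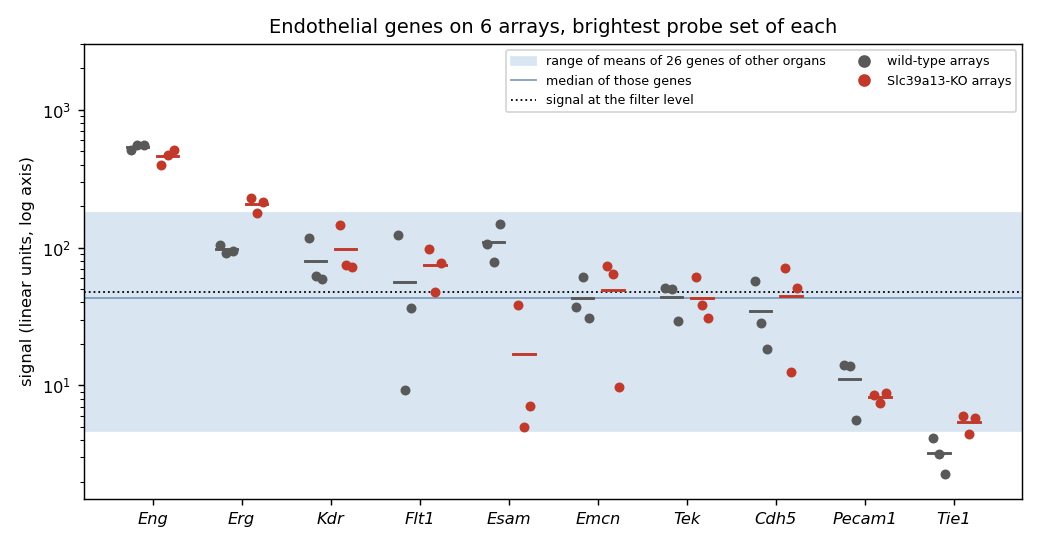
Signals of the brightest probe set of each of the 10 endothelial genes on a log axis, with wild-type arrays in gray, Slc39a13-KO arrays in red and group means as horizontal lines. The band is the range of mean signals of 26 genes of other organs, 4.66 to 179. Eng lies above the band, the KO arrays of Erg lie near or above its upper edge, and the KO arrays of Esam lie below its wild-type arrays.

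Among the receptors, Kdr and Flt1 bind vascular endothelial growth factors. Kdr, the main signaling receptor of the pair, had signals of 118, 62.5 and 59.4 on wild-type replicates 1, 2 and 3 and of 146, 74.8 and 71.8 on KO replicates 1, 2 and 3. The groups overlapped, and replicate 1 was the highest array of each group. The log2 fold change was 0.26 (95% confidence interval -0.65 to 1.16, limma adjusted p = 0.744), and it was -0.05 without KO replicate 1. Flt1, a high-affinity receptor that also exists in a soluble decoy form, was measured by 4 probe sets, of which 1 passed the filter. Its signals were 123, 9.33 and 36.6 in wild-type and 98.3, 47.8 and 77.5 in KO chondrocytes. These arrays overlapped widely, and the log2 fold change of 0.78 had an interval of -0.77 to 2.33 (limma adjusted p = 0.533). The 3 dimmer probe sets of Flt1 had mean signals of 10.4, 17.7 and 44.3, and their log2 fold changes without the filter were 0.83, -0.49 and -0.42.

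Tek is the receptor of angiopoietins and Tie1 its partner, which has no established ligand of its own. Tek had signals of 51.2, 49.96 and 29.4 in wild-type and 60.8, 38.4 and 30.7 in KO chondrocytes, so the groups covered the same range. Tie1 was at 2.29 to 4.16 on the wild-type and 4.44 to 5.97 on the KO arrays. The KO arrays of Tie1 were all above the wild-type arrays, at signals under the pseudocount of 7.96, and its log2 fold change without the filter was 0.26 (interval -0.73 to 1.25, limma adjusted p = 0.815 over 18193 genes). For Tek this was -0.02 (interval -1.09 to 1.05, limma adjusted p = 0.990).

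Eng, or endoglin, is a coreceptor for TGF-β and BMP ligands that is strong in endothelium and is also carried by mesenchymal cells. It had signals of 512, 552 and 554 in wild-type and 398, 473 and 510 in KO chondrocytes. Every KO array lay below every wild-type array, by as little as 512 against 510, and the log2 fold change of -0.23 did not pass (standard error 0.13, interval -0.52 to 0.06, limma adjusted p = 0.304). Its second probe set gave means of 214 ± 30.4 (SD, n = 3) and 211 ± 29.95 (SD, n = 3), with a log2 difference of -0.01. The small separation on the brighter probe set was therefore not seen on the other.

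Cdh5, Pecam1 and Esam are adhesion molecules of endothelial junctions, and Emcn is a sialomucin of the endothelial surface. Cdh5, or VE-cadherin, which forms the adherens junctions of endothelium, had signals of 56.8, 28.2 and 18.3 in wild-type and 71.2, 12.5 and 50.5 in KO chondrocytes on its brighter probe set. Its other probe set ranged from 8.37 to 67.9, with both extremes on KO arrays, and the 2 probe sets did not order the arrays alike. Pecam1, the classical CD31 antigen of endothelium and platelets, was at 5.61 to 14.01 in wild-type and 7.44 to 8.87 in KO chondrocytes. Emcn had 37.3, 61.3 and 30.6 in wild-type and 73.7, 64.6 and 9.66 in KO chondrocytes. For none of these 3 genes were the groups apart, and the log2 fold changes without the filter were 0.21 for Cdh5, -0.20 for Pecam1 and -0.07 for Emcn.

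Esam, an immunoglobulin-family adhesion molecule of endothelial tight junctions and of platelets, was the member with the lowest ratio of KO to wild type. Wild-type replicates 1, 2 and 3 gave signals of 106, 78.0 and 148, and KO replicates 1, 2 and 3 gave 38.5, 5.02 and 7.08. All KO arrays were below all wild-type arrays, and KO replicate 1 was the highest of the 3. The mean fell from 111 ± 35.1 (SD, n = 3) to 16.9 ± 18.8 (SD, n = 3). Because the KO arrays are so dim, the mean log2 value of Esam over all arrays, 5.61, is under the filter, and the gene was left out of the main test. Without the filter its log2 fold change was -2.47 (standard error 0.59, interval -3.76 to -1.17, limma adjusted p = 0.0346 over 18193 genes, where 2.91% of genes were higher and 2.83% lower). The size depends on the pseudocount, from -1.68 to -2.99 at the 25th and the 1st percentile of signals. Leaving out any array but KO replicate 1 ended the call: the adjusted p was 0.122, 0.0965 and 0.155 without wild-type replicate 1, 2 or 3, and 0.0964 and 0.0694 without KO replicate 2 or 3. Without KO replicate 1 it was 0.00830.

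Markers of mesothelium and of platelets were read on the same arrays as Esam. Of 6 markers of mesothelium, the lining of the body cavities, 5 were lower and none higher, against 4.67% and 4.64% of all genes. The summed signal of the 6 was 2792 to 5176 on the wild-type arrays and 251 to 514 on the KO arrays. Krt19, Upk3b, Msln and Upk1b had the largest decreases, with log2 fold changes of -3.60, -3.09, -3.09 and -2.63. Of 6 markers of platelets and megakaryocytes, 4 were tested and none passed in limma, nor at an unadjusted p of 0.05 (0 genes). Pf4 and Treml1, with the lowest p, had log2 fold changes of 0.84 and -0.89 (limma adjusted p = 0.294 and 0.466), and the summed signals of the list overlapped, 560 to 691 and 578 to 644. The part of either cell type in the lower Esam was not tested.

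**Figure D2:**
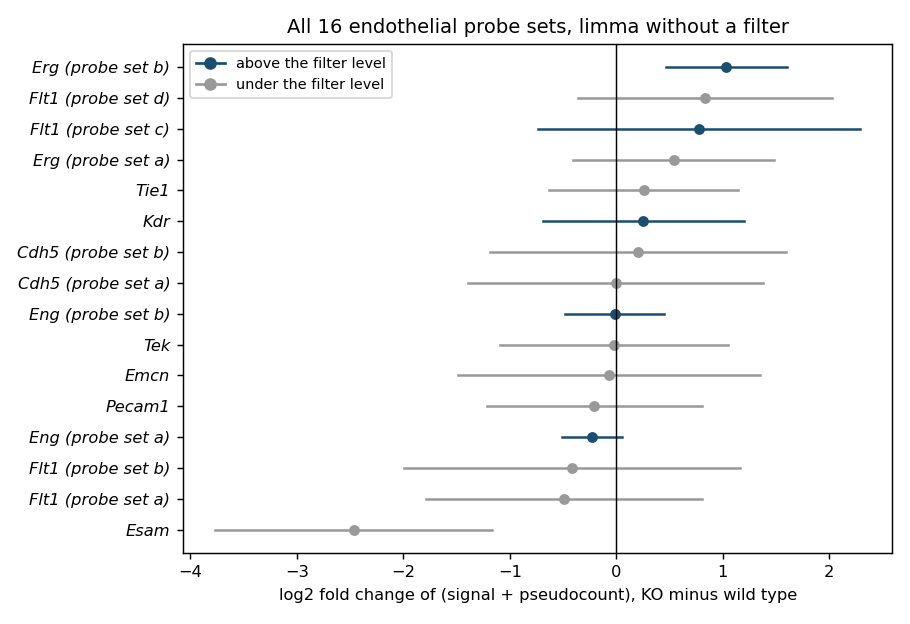
Log2 fold change of all 16 endothelial probe sets, KO minus wild type, from limma without a filter, with 95% confidence intervals as lines. Probe sets above the filter level are dark, the others gray, and letters tell the probe sets of one gene apart. The intervals of the brighter Erg probe set (1.03) and of Esam (-2.47) do not include 0, and the other 14 do.

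Erg was the 1 endothelial gene that rose. Its brighter probe set had signals of 105, 90.7 and 94.995 on wild-type replicates 1, 2 and 3 and of 230, 178 and 214 on KO replicates 1, 2 and 3. The groups were far apart relative to their spread, with the lowest KO array at 178 and the highest wild-type array at 105. The log2 fold change was 1.03 (standard error 0.23, interval 0.52 to 1.55, limma adjusted p = 0.0218), where 4.64% of all tested genes were higher. The second Erg probe set was near the lower end of the scale, at 5.76, 4.31 and 4.801 in wild-type and 11.3, 8.56 and 12.7 in KO chondrocytes. Its KO arrays were above its wild-type arrays, but these signals are around the pseudocount and within the range of the genes of other organs or below it, so no fold is drawn from them. Its log2 difference of 0.54 did not pass (standard error 0.43, limma adjusted p = 0.582 over 34945 probe sets). Leaving out wild-type replicate 1, 2 or 3 gave the brighter probe set log2 fold changes of 1.09, 0.99 and 1.02 with limma adjusted p = 0.0594, 0.0913 and 0.0730. The call was thus lost without any 1 wild-type array, while the fold change stayed near 1.03. In these settings 256, 229 and 267 genes of all tested were called higher, against 590 with all arrays. The limma adjusted p of Erg was 0.0398 without KO replicate 1. With each array centred on its median the log2 fold change was 0.94 (limma adjusted p = 0.0633).

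Erg was set beside the genes more restricted to vessels. The summed signals of the 8 genes other than Eng and Erg were 511, 306 and 330 in wild-type and 503, 255 and 262 in KO chondrocytes, and overlapped. Replicate 1 was the highest array of both groups in this sum, and 7 of the 8 genes had their highest signal on one of those arrays, 5 of them on KO replicate 1, the array with the highest median signal. Erg separated the groups, as did Esam and Tie1 among the 8. Erg too had its highest signal of each group on replicate 1, 105 in wild-type and 230 in KO chondrocytes. Over all 10 genes without the filter, 2 (Erg and Tie1) had KO arrays all above and 2 (Esam and Eng) all below the wild-type arrays, while of all 18193 genes 13.2% were apart upward, 11.7% downward and 24.9% in either direction. Whether Erg differs from any one of the other genes in its change was not tested.

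**Figure D3:**
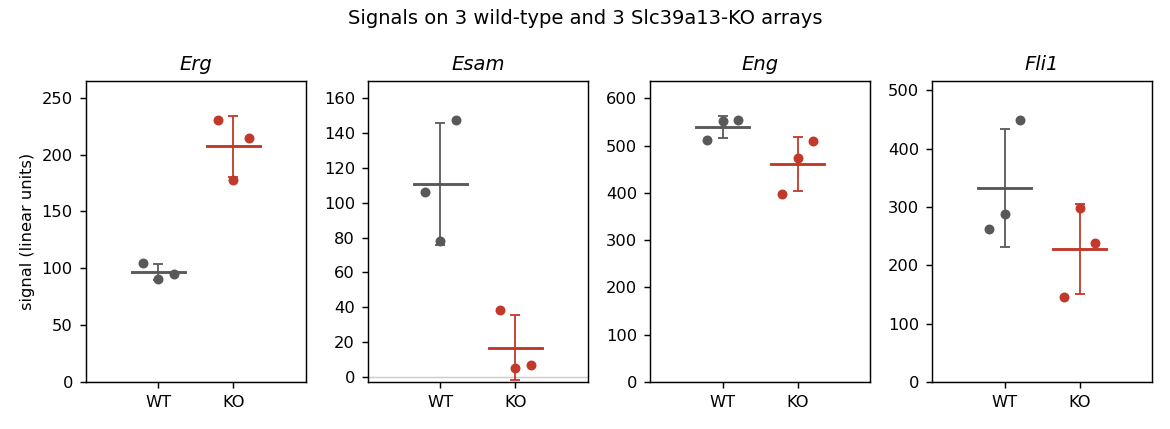
Signals of Erg, Esam, Eng and the Erg relative Fli1 on the probe set that was brightest for each, with points for arrays, horizontal lines for group means and bars for the SD of 3 arrays. Wild-type (WT) and KO arrays are apart for Erg, Esam and, narrowly, Eng, and they overlap for Fli1.

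Fli1, the closest relative of Erg, which acts beside it in endothelium and is also made in blood cells and mesenchyme, was measured by probe sets that disagreed. Its brightest probe set had signals of 262, 288 and 448 in wild-type and 146, 299 and 238 in KO chondrocytes, with a log2 difference of -0.55 (standard error 0.28, limma adjusted p = 0.254). A dimmer probe set of Fli1 went from 148 ± 14.1 (SD, n = 3) to 209 ± 37.5 (SD, n = 3), which is 0.47 as a log2 difference. The 2 probe sets of Fli1 thus point in opposite directions and no direction is given for the gene. Among 17 tested genes of the ETS family other than Erg, none was higher and 1 was lower, against 4.64% and 4.67% of all genes. That gene was Etv5, a target and effector of FGF signaling, which went from 413 ± 49.2 (SD, n = 3) down to 209 ± 41.3 (SD, n = 3), or -0.96 on the log2 scale (standard error 0.18, limma adjusted p = 0.0102, but 0.0569 and 0.0577 without wild-type replicate 1 or 3). The median log2 fold change of the family was -0.20, and that of all tested genes 0.01.

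The promoter windows of Erg are shown because it is the member that rose and because RefSeq gives it several start sites, from which the arrays cannot tell. Each is the 250 bases before a start on the minus strand of GRCm38.p6 (RefSeq), at chr16:95586594-95586843, chr16:95530366-95530615 and chr16:95459349-95459598, written 5′ to 3′, with GGAA, the core that ETS factors bind, in capitals, also where it is on the other strand (TTCC).
Erg start 1: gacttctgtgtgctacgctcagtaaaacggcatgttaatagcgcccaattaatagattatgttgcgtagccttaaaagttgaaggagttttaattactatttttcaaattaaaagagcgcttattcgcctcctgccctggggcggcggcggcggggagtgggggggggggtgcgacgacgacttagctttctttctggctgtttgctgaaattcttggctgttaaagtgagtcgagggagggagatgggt
Erg start 2: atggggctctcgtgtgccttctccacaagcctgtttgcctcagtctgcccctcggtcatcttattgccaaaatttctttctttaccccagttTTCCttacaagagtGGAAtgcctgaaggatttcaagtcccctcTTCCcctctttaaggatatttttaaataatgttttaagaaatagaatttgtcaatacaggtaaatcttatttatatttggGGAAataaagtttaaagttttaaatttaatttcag
Erg start 3: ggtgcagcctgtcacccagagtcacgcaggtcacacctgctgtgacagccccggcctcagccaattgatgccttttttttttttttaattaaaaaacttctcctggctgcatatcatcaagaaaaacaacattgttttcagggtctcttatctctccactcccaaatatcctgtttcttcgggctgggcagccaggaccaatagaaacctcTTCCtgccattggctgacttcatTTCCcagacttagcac

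These windows hold 0, 4 and 2 matches to GGAA on both strands, and 93.4% of 32851 windows of this length hold at least 1. RefSeq windows were given for 7 of the 10 endothelial genes and not for Pecam1, Cdh5 and Esam. Outside Erg, the number of GGAA matches was 2 in Tek, 3 in Eng, 4 in Emcn, Flt1 and Kdr and 7 in Tie1, and 3.82% of all windows hold 7 or more. The longer form GGAAGT, which contains GGAA, had 1 match each in Eng, Flt1, Kdr and Tie1 and none in Emcn, Tek or the Erg windows, where 19.7% of all windows hold it. A match is a run of letters and not a site shown to be bound.

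Of 30 tested genes in a wider list of 50 endothelial genes, 2 were higher in Slc39a13-KO chondrocytes, 1 was lower and 27 did not pass. These counts are read against 4.64% and 4.67% of all genes. The median log2 fold change of the list was 0.23, against 0.01 for all genes and 0.44 for the 9 tested genes of other organs. Nrp1, a coreceptor for vascular endothelial growth factor and semaphorins, rose from 2281, 2244 and 1958 in wild-type to 3318, 3529 and 3111 in KO chondrocytes. All KO arrays were above all wild-type arrays, and the log2 fold change was 0.62 (standard error 0.09, limma adjusted p = 0.00344). With the mean of its probe sets, Nrp1 had 0.32 (limma adjusted p = 0.103). Clec14a, a C-type lectin-like protein of endothelium, rose from 250, 217 and 170 to 422, 309 and 391, by 0.80 on the log2 scale (standard error 0.19, limma adjusted p = 0.0305). The second probe set of Clec14a rose in the same direction, from 52.6 ± 19.3 (SD, n = 3) to 129 ± 26.6 (SD, n = 3). Without wild-type replicate 2 or 3 or KO replicate 1 or 3, Clec14a did not pass (limma adjusted p = 0.0984, 0.114, 0.0638 and 0.0616). Rhoj, a small GTPase of endothelial and other cells, fell from 1668, 1518 and 1612 to 1098, 1056 and 844, with a log2 difference of -0.68 (standard error 0.11, limma adjusted p = 0.00561).

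Of the 50 genes of the wider list, 40 had a mean signal no higher than the brightest of the genes of other organs. Vwf, the clotting factor stored in endothelial granules, had 47.5, 39.5 and 3.04 in wild-type and 78.9, 6.49 and 7.43 in KO chondrocytes. Cldn5, the endothelial claudin, averaged 44.4 ± 30.2 (SD, n = 3) and 48.8 ± 17.1 (SD, n = 3), and both genes were named after their values were seen. The 10 above it were Nrp1, Rhoj, Thbd, Nrp2, Cd34, Procr, Clec14a, Fli1, Adgrf5 and Ephb4, of which several, such as Nrp1, Nrp2 and Cd34, are also known from mesenchymal cells.

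**Figure D4:**
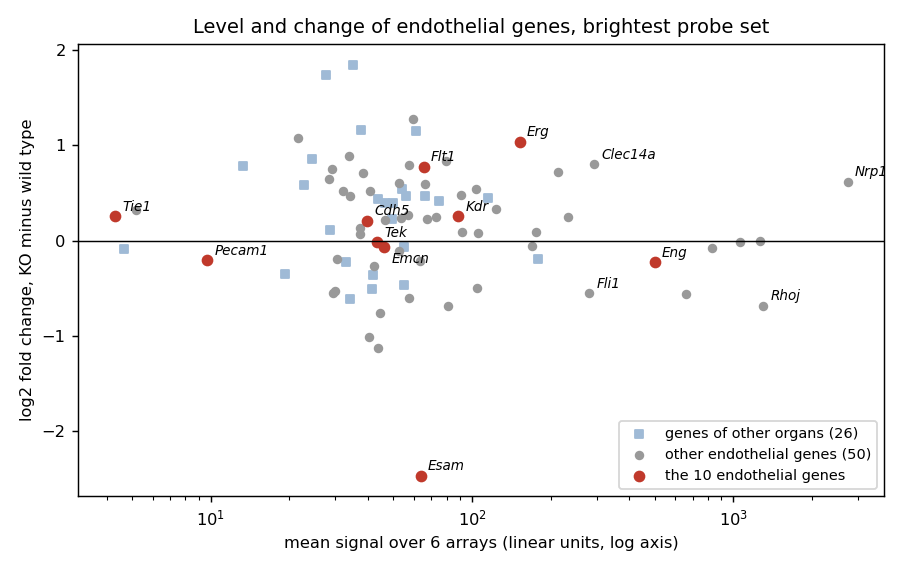
Mean signal over the 6 arrays on a log axis against the log2 fold change, KO minus wild type, for the 10 endothelial genes (red), 50 other endothelial genes (gray) and 26 genes of other organs (blue squares), each on its brightest probe set and from limma without a filter. Most endothelial genes lie among the genes of other organs, with Eng, Nrp1 and Rhoj to their right, and Esam lies lowest.

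Factors that act on endothelium were measured in the same cells. Of 12 genes of vascular endothelial growth factors, angiopoietins and other ligands, 11 were tested and none passed in limma, with a median log2 fold change of 0.17. At an unadjusted p of 0.05, 3 were higher and 0 lower, against 12.7% and 12.4% of all genes. Those with the lowest p were Angpt4, an angiopoietin, with 0.89 (standard error 0.31, limma adjusted p = 0.106) and Apln, the ligand of the apelin receptor, with 0.46 (standard error 0.18, limma adjusted p = 0.136). Of 9 genes of secreted proteins known to restrain vessel growth, 7 were tested, and their median was 0.63. At the adjusted p of 0.05, 5 were higher and none was lower, against 4.64% and 4.67% of all genes. Thbs2, a thrombospondin, Tnmd, which encodes tenomodulin, and Serpinf1, which encodes the factor PEDF, had log2 fold changes of 1.20, 1.14 and 1.05, and Thbs1 had 0.63. Tnmd was at 857, 841 and 870 in wild-type and 1990, 1653 and 2074 in KO chondrocytes (limma adjusted p = 0.000337), so the groups were far apart. Cnmd, the chondromodulin of avascular cartilage and named after its values were seen, had 0.57 (limma adjusted p = 0.0467), and did not pass without wild-type replicate 1, 2 or 3 or KO replicate 1 or 2 (0.168, 0.162, 0.0515, 0.0611 and 0.0553). The 2 probe sets of Thbs1 disagreed, since the other had 0.12 (limma adjusted p = 0.472 over 23294 probe sets). Without KO replicate 2 that other probe set became the brighter and stood for Thbs1, with 0.10 (limma adjusted p = 0.607). These proteins have other roles in matrix and tendon, and what their change means for vessels was not measured.

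Since Erg is also a gene of joint-forming chondrocytes, a list of 11 genes of the joint surface was read beside it. Of 6 tested, 2 were higher and none was lower, against 4.64% and 4.67% of all genes, and the median log2 fold change of the list was -0.22. Sfrp4, a secreted Wnt antagonist, rose from 322, 202 and 235 to 693, 565 and 813, by 1.43 on the log2 scale (standard error 0.19, limma adjusted p = 0.00255), and Abi3bp, an extracellular matrix protein, had 1.02 (standard error 0.18, limma adjusted p = 0.00730). Prg4, which encodes the joint lubricant lubricin, overlapped between groups, and Gdf5, the growth factor that marks forming joints, had signals of 179, 100 and 69.6 in wild-type and 31.5, 80.3 and 52.0 in KO chondrocytes. Both were named after their values were seen, and their log2 fold changes of 0.41 and -0.97 did not pass (limma adjusted p = 0.191 and 0.221). Creb5 and Osr1, also named after their values were seen, had -0.95 and -0.86 and did not pass (limma adjusted p = 0.235 and 0.206). The groups were apart upward for 2 of the tested genes, Sfrp4 and Abi3bp, and downward for 2, Creb5 and Osr1. Of all 18193 genes without the filter, 13.2% were apart upward and 11.7% downward.

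**Figure D5:**
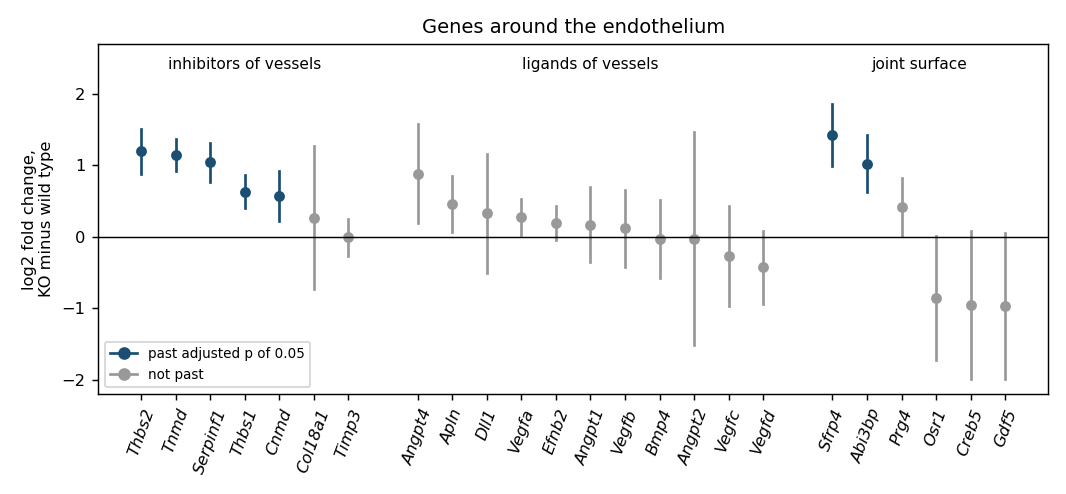
Log2 fold changes, KO minus wild type, with 95% confidence intervals from limma for the tested genes of 3 lists, secreted inhibitors of vessel growth, ligands that act on vessels and genes of the joint surface. Dark points passed the adjusted p of 0.05. Of the inhibitors 5 lie above 0 and passed, of the ligands none passed, and of the joint-surface genes Sfrp4 and Abi3bp passed.

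The genes whose log2 signals followed Erg most closely over the 6 arrays were Dipk2a, Zdhhc15 and Galns, each with a Pearson correlation of 0.997, 0.997 and 0.996 over 6 arrays. Of 12714 other genes, 202 had a correlation above 0.95, and all values come from the same 6 arrays and include the difference between groups. Galns, a lysosomal enzyme that degrades keratan sulfate, went from 354 ± 11.3 (SD, n = 3) to 519 ± 50.3 (SD, n = 3), with limma adjusted p = 0.0285. It was not called without any 1 wild-type array (limma adjusted p = 0.0829 to 0.120) or without KO replicate 1 or 3 (0.0527 and 0.0504), and its choice for likeness to Erg favors genes that differ between the groups. Sfrp4 had a correlation of 0.978 with Erg and Clec14a of 0.946, while Kdr had 0.44 and Eng -0.79.

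Markers of other cells that may travel with vessels were as follows, with counts read against 4.64% of all genes higher and 4.67% lower. Of 7 pericyte and smooth muscle genes 5 were tested and 1 was higher, Pdgfrb, the platelet-derived growth factor receptor also found on fibroblasts, with a log2 fold change of 0.43 (limma adjusted p = 0.0264). It did not pass without any 1 wild-type array (limma adjusted p = 0.0715 to 0.104) or without KO replicate 2 (0.0819). Of 8 macrophage genes 6 were tested and 1 was lower, Cd14, with -1.55 (limma adjusted p = 0.0419, and 0.0727 to 0.160 without any 1 wild-type array or KO replicate 2). The 8 macrophage genes had mean signals of 5.43 to 189, with a median of 117, and their summed signals overlapped, 657 to 867 and 640 to 909. No leukocyte or erythroid gene passed the filter. Of the 8 chondrocyte genes 4 rose, Col11a2, Acan, Comp and Col9a1, with log2 fold changes of 0.91, 0.91, 0.76 and 0.53. Col9a1 did not pass without wild-type replicate 1 or 2 (limma adjusted p = 0.111 and 0.111). The part of these differences in the values of the endothelial genes was not tested.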

How the data were processed

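Gene expression of wild-type and Slc39a13-KO rib chondrocytes was profiled on 6 arrays (Affymetrix Mouse Genome 430 2.0), of which each group had 3, after one-cycle biotin labeling. The deposited values are signal intensities on a linear scale. Per the labels they were made with MAS5 (version not given in the sources used here), whereas the authors' methods name gcRMA; equal trimmed means (500.003 without the lowest and highest 2%) and unequal quantiles are the form of MAS5. The number of arrays limits the precision.

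Of 45101 probe sets, 34945 had 1 gene symbol, 932 several and 9160 none, and 64 controls were left out; 34741 matched a RefSeq gene table (GRCm38.p6) by Entrez identifier, which changed 0 symbols. The values were taken as log2(signal + 7.96), the pseudocount being the 10th percentile of all signals. The filter kept probe sets whose mean reached the 40th percentile (5.80), and the brightest of the remaining 23294 stood for each of 12715 genes. Of the 16 endothelial probe sets 5 passed. KO was set against wild type by lmFit and eBayes with trend (limma 3.58.1, R 4.3.3) without covariates, calling genes at a Benjamini-Hochberg adjusted p of 0.05 over every gene tested. The comparison was tested on simulated data.

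The members and lists were chosen with earlier results of these data known. Named were all members on every probe set, up to 4 called genes per list with the largest change or the 2 with the lowest p, Fli1, Slc39a13 and the 3 genes most correlated with Erg; other genes are marked. Alternatives were no filter or one at the 60th percentile, pseudocounts taken from the 1st and 25th percentiles, median centring, quantile normalization, averaging the probe sets of a gene, dropping probe sets of possibly several transcripts, limma without trend, a replicate block, a term for arrays with high Xist, the methods' t-test and each array left out in turn. Those of Esam without the filter were chosen after the data were seen. Sex-linked genes served only for the Xist term and to tell the sex of the arrays. Of these genes, 4 were tested and none passed.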

Additional observations from a re-analysis of the deposited data

How the results depend on the processing

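The count of endothelial genes higher in Slc39a13-KO chondrocytes was 1 (Erg) and became 0 with the filter at the 60th percentile, where Erg was not tested, with median centring, with the replicate block and with the methods' t-test, and it was 0 to 1 with 1 array left out. The count of lower endothelial genes was 0 and became 1 (Esam) without the filter, and it was 0 with any array left out. For the wider list, the 2 higher genes became 0 with median centring, 0 in limma without trend, 0 with the methods' t-test, 1 with probe sets averaged per gene and 1 with the replicate block, and 1 to 2 with 1 array left out. Its 1 lower gene, Rhoj, became 0 in limma without trend and 0 with the methods' t-test, and was 1 with any array left out. The log2 fold change of Erg was 0.91 to 1.14 over 17 alternatives, with an adjusted p of 0.0164 to 0.0913, and it passed in 11. With the replicate block its adjusted p was 0.0524. The replicate numbers are not stated to pair the arrays, and the deviations of same-numbered arrays correlated at 0.03, 0.02 and -0.07. With 3 arrays a group these values cannot exclude a pairing. Kdr was -0.05 to 0.55 with 1 array left out, and changed sign without KO replicate 1 (-0.052). Esam without the filter was -3.04 to -1.68 over 14 further settings and passed in 5 of them; limma without trend, the replicate block, the Xist term and the methods' t-test gave an adjusted p of 0.161, 0.0584, 0.0550 and 0.208. The cause was not tested. The methods' t-test called 41 genes higher and 44 lower over all genes, and limma without trend 122 and 142. Detection calls were not used here, so a signal near that of genes of other organs does not tell a low level from none.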
